A study of Drosophila melanogaster with 2 samples.

Results

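The 885 calls described here were the regions that the study's pooled peak list placed on chromosome 4 of Drosophila melanogaster with the summit outside every annotated transposable element insertion. Chromosome 4 held 1065 of the 30000 pooled calls, of which 180 had the summit inside an insertion and were left out. The 885 members were thus 83.1% of the calls on the chromosome and 2.95% of the pooled list. Chromatin immunoprecipitation and sequencing (ChIP-seq) was done on whole embryos of both sexes, aged 0 to 16 h, from a fly line in which an exon encoding eGFP, inserted in an intron by a MiMIC cassette, tags the protein ADD1 at its own gene. There was 1 group, with 2 libraries named biological replicates 1 and 3, and no second genotype, treatment or stage. The antibody was raised against GFP per the labels' protocol, while the labels' antibody field names the gene CG8290, which encodes ADD1. Whole embryos mix many cell types, so a stronger call cannot be told apart from a call present in more cells.

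Chromosome 4 is the small dot-like autosome of the fly. Its genes are transcribed, yet they lie between short transposable element remnants in chromatin that carries heterochromatin protein HP1a and histone H3 methylated at lysine 9, and POF, a protein specific to this chromosome, binds over its genes. ADD1 is named for a zinc finger domain that it shares with mammalian ATRX, and it is known in flies as a partner of HP1a. In the Release 6 assembly the chromosome has 1348131 bases, 118 annotated genes, 80 of them protein-coding, and 566 transposable element insertions that cover 24.8% of its bases. Genes, introns included, cover 79.0% of the bases.

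Each call carries a signal, the enrichment value that the authors' peak caller gave it, which is used here only to rank calls within a list. A call is named kept when it is also in the list of reproducible peaks that the authors obtained with the irreproducible discovery rate (IDR) procedure. These 4402 kept peaks were the pooled calls of highest signal. Of the 885 members, 62 were kept and 823 were not. A summit within 500 bp of an annotated transcript start was assigned to a promoter, and other summits to an exon, an intron or intergenic sequence, in that order. The large arms are the long arms of the other chromosomes outside their pericentric ends, where 25653 calls had the summit outside transposable elements. Pericentric sequence held 2557 such calls. All 3 sets come from the same 30000 calls and each list stops at that number, so counts show how calls are placed and not how much protein is bound.

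The sequences around the summits of 9 kept members show what the strongest sites and the sites with a promoter motif look like. They are the 3 strongest members and the 6 kept members that hold TATCGATA, the motif of the promoter-binding factor DREF. Each is the plus strand of 201 bases of the Release 6 assembly of chromosome 4, with the summit in the middle. Capitals mark TATCGATA, or TCGATA in the Asator sequence, read on either strand, and the other bases are in lower case.
zfh2 upstream, chr4:497810-498010: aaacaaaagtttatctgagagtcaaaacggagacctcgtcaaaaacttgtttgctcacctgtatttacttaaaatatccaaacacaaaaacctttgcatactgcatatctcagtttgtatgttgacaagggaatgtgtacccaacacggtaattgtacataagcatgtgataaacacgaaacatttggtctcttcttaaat
lncRNA:CR43437 upstream, chr4:424716-424916: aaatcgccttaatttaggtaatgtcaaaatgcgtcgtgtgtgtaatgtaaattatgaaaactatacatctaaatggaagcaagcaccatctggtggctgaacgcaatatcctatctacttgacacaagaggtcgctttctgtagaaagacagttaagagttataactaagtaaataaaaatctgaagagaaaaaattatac
Asator intron, chr4:486601-486801: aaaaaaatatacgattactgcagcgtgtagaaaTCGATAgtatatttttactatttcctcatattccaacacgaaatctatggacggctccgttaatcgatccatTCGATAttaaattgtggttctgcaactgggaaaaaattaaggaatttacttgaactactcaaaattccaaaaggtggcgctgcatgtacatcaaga
PlexA, chr4:1027188-1027388: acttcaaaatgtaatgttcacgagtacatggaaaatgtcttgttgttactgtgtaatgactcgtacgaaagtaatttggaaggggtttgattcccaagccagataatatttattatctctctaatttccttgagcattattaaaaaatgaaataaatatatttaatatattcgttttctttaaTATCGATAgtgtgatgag
snoRNA:CD-24, chr4:63383-63583: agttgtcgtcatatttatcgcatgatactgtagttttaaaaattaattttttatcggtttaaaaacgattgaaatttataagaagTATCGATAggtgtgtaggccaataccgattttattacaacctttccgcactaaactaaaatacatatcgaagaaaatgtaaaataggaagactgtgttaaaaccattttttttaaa
Crk, chr4:210106-210306: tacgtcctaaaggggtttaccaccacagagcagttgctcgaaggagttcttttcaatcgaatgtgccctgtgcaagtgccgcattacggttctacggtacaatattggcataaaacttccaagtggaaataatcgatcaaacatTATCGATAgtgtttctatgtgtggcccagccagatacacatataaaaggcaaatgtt
ey upstream, chr4:696817-697017: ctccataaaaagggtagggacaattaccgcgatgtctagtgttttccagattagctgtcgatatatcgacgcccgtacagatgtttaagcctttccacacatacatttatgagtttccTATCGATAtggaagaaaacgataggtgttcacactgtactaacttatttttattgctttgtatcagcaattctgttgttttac
Actbeta, chr4:1084806-1085006: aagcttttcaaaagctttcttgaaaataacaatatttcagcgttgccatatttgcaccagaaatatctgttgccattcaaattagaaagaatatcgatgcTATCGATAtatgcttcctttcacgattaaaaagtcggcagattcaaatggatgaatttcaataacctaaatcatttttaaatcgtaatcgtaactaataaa
Hcf, chr4:359765-359965: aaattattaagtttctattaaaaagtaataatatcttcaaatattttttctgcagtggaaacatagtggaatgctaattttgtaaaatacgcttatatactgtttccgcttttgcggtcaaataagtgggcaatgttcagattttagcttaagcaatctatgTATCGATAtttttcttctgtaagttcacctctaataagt

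The strongest member had a signal of 390.38, rank 186 of the 30000 pooled calls, in intergenic sequence 3900 bp upstream of zfh2, which encodes a zinc finger homeodomain transcription factor. It had rank 122 in replicate 1 and rank 286 in replicate 3. The next lay 1251 bp upstream of the non-coding gene lncRNA:CR43437, with a signal of 300.44, and the third in an intron of Asator, which encodes a tau tubulin kinase relative, with 291.05. Neither the zfh2 nor the lncRNA:CR43437 sequence above holds TCGATA, and the Asator sequence holds it 2 times. Of the 5 strongest members, 3 were intergenic, 1 was intronic and 1 was at a promoter, that of Gyf, a regulator of mRNA translation, with a signal of 286.51. The fifth lay 615 bp upstream of Sox102F, a SoxD transcription factor gene, with 268.08.

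Below these, most strong members were at promoters, which made up 13 of the 20 strongest. The promoter call of PlexA, a semaphorin receptor used in axon guidance, had a signal of 258.09, with rank 536 in replicate 1 and rank 547 in replicate 3. The promoter call of RpS3A, a ribosomal protein gene, had 209.20, with ranks 822 and 1205 in replicates 1 and 3. That of Arl4, a small GTPase gene, had 212.42, with ranks 875 and 1134 in replicates 1 and 3. These summits lay 187, 124 and 87 bp upstream of the starts of PlexA, RpS3A and Arl4. Among the 20, the promoters of CG32017 (255.6), CG31998 (214.44), anne (209.83) and pho (195.15), the last encoding a DNA-binding Polycomb group protein, were also called. The call at the start of apolpp, a lipoprotein precursor gene, lies inside Zyx, which encodes the focal adhesion protein zyxin, and had a signal of 213.26. A separate call at the start of Zyx had 183.36.

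The remaining strong members outside promoters were of several kinds. One lay in an intron of the antisense RNA gene asRNA:CR44030, with a signal of 246.95 and ranks 388 and 1176 in replicates 1 and 3, and its 201 bases were not unique in the assembly. Another, of signal 201.55, was intergenic, 2162 bp from the start of the small nucleolar RNA gene snoRNA:CD-24. A call of signal 192.36 lay in a 3' untranslated region, in the stretch where Cals, a calsyntenin gene, and sv, the Pax2 gene shaven, run into each other from opposite strands. A second kept call, of signal 149.39, overlapped it.

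A smaller share of the members was kept than of the calls of the large arms, and in exons and introns the share was several times lower. Kept members were 7.01% of the 885 (exact 95% interval 5.41 to 8.89%), against 16.4% of the calls of the large arms, 4.61% of pericentric calls and 14.7% of all 30000 calls. At promoters 37 of 159 members were kept, which is 23.3% (16.9 to 30.6%), against 28.8% on the large arms, a background inside the members' interval. The pericentric value at promoters, 32.1%, lies above that interval. Outside promoters 3.44% of members were kept, against 9.98% on the large arms. In exons the kept share was 1.22% of 328 members (0.333 to 3.09%), against 6.35% on the large arms and 1.03% in pericentric sequence, and in introns it was 2.33% of 300 members (0.943 to 4.75%), against 10.6% on the large arms and 1.13% in pericentric sequence. In intergenic sequence it was 14.3% of 98 members (8.04 to 22.8%), against 10.4% on the large arms, and the members' interval holds the value of the large arms. The pericentric value for intergenic sequence, 2.71%, lies below that interval. Overlapping calls are not independent and the intervals cover counting error only. The 885 members formed 716 runs of overlapping calls, and the 62 kept ones fell in 58 of these.

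The signal of the calls themselves differed less between the members and the large arms, and was lower over pericentric calls as a whole. Its median was 41.0 over the members (25.8 to 390) and 43.1 over the large arms, and the weakest 10000 calls of the list took 32.1% of the members and 31.7% of the calls of the large arms. The difference from the large arms was at the top, with the upper quartile at 55.2 for the members and 71.5 for the large arms. Pericentric calls had a median of 35.6 and an upper quartile of 46.2, and 46.7% of them were among the weakest 10000. Over promoter calls the medians were 57.8 for the members and 59.5 for the large arms. Over exon calls they were 39.1 for the members and 35.1 for the large arms. Chromosome 4 had 12 members among the 1000 strongest calls and 4 among the 500 strongest, while the members were 2.95% of the whole list.

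Calls were denser than on the large arms in every feature, most of all in exons, and few of those in exons and introns were kept. The members numbered 873 per Mb of sequence outside transposable elements, against 233 per Mb on the large arms and 170 per Mb in pericentric sequence, while the kept members numbered 61.1 per Mb, against 38.3 on the large arms and 7.86 in pericentric sequence. Exons outside promoters held 882 members per Mb of exon, against 90.8 on the large arms, and coding exons alone 976 per Mb, against 45.6 on the large arms, a ratio of 21.4. Promoters held 1201 members per Mb, against 499 on the large arms, a ratio of 2.41. For introns the ratio was 3.11 and for intergenic sequence 5.09. Kept members were also denser than kept peaks of the large arms at promoters, with 279 per Mb against 144. In exons they numbered 10.8 per Mb, against 5.77, though this rests on 4 kept members. In introns they were sparser, with 17.3 per Mb against 25.3.

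The exon share of the members was close to the exon share of the bases, which was not so on the large arms. Exons took 37.1% of the members (33.9 to 40.3%) and 36.7% of the bases outside transposable elements. On the large arms they took 9.02% of calls and 23.2% of bases. Introns took 33.9% of the members (30.8 to 37.1%) and 39.9% of the bases, while on the large arms they took 39.5% of calls and 38.7% of bases. On chromosome 4 intergenic sequence took 11.1% of the members and 10.4% of the bases, and promoters took 18.0% of the members (15.5 to 20.7%) and 13.1% of the bases. The coding exon calls had a mean GC content of 40.7 ± 5.92% within 100 bp of the summit (SD over 249 members), against 49.4 ± 7.67% on the large arms (SD over 824 calls). The sequence as a whole had 34.1% GC on chromosome 4, against 42.8% on the large arms, and the part of this difference in the density of calls was not tested.

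**Figure D1:**
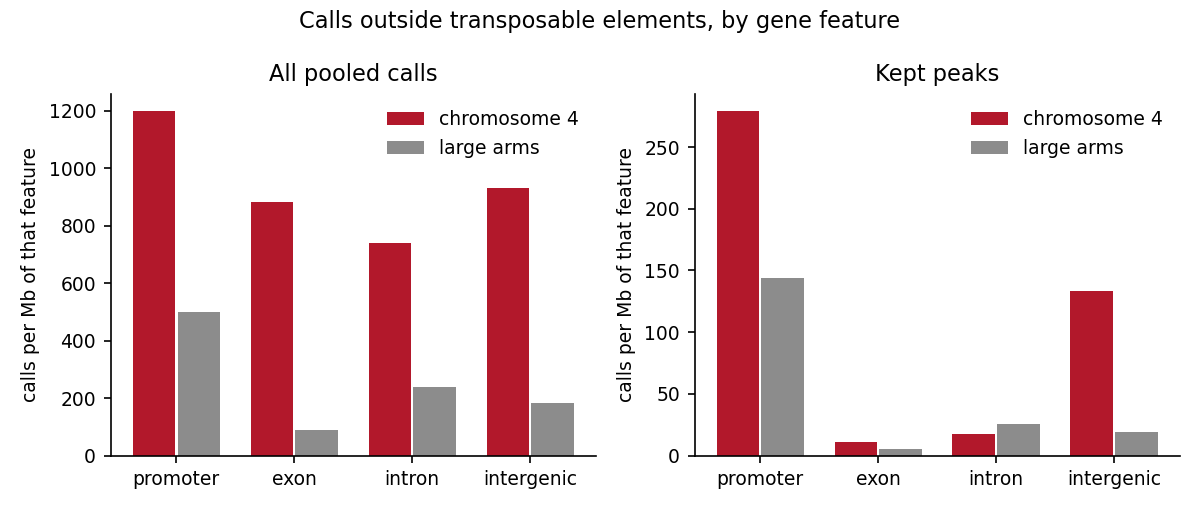
Calls per Mb of promoter, exon, intron and intergenic sequence outside transposable elements, on chromosome 4 (red) and on the large arms (grey), for all pooled calls at left and kept peaks at right, on linear axes. Exons held 882 calls per Mb on chromosome 4, against 90.8 on the large arms, while kept peaks of exons and introns were sparse in both.

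Kept members were placed differently from the rest, with nearly the promoter share of kept peaks of the large arms, and with intron and intergenic shares close to those of pericentric kept peaks. Promoters took 37 of the 62 kept members, which is 59.7% (46.5 to 71.9%), against 59.9% of the kept peaks of the large arms. Exons took 4 kept members, introns 7 and intergenic sequence 14. The intergenic share was 22.6% (12.9 to 35.0%), against 11.0% on the large arms and 26 of 118 kept peaks in pericentric sequence. The intron share was 11.3% (4.66 to 21.9%), against 25.6% on the large arms and 10.2% in pericentric sequence. Per Mb of intergenic sequence there were 133 kept members, against 19.1 on the large arms. Of the 4 in exons, 3 were in 3' untranslated regions.

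The 14 kept intergenic members were also set beside the genes for transcription factors. The nearest start was that of a listed transcription factor or cofactor gene for 8 of the 14 (57.1%, 28.9 to 82.3%), against 24 of the 84 intergenic members that were not kept (28.6%, 19.2 to 39.5%), and the intervals overlap. The genes were zfh2, Sox102F, ey, fuss and pan, and this grouping was made after their values were seen. Some of the 8 members share a nearest gene, so they are not independent. The 3 upstream of Sox102F had signals of 268.08, 113.35 and 101.47, and the last pair overlap. One, 772 bp upstream of ey, a Pax6 gene for eye development, had a signal of 160.44 and is printed above with TATCGATA in capitals. A separate call 58 bp upstream of the ey start had 130.92.

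Kept members sat close to starts, on the upstream side. Their median distance to the nearest annotated start was 141 bp, and 24 of the 62 (38.7%) lay within 100 bp, against 236 bp and 30.1% for kept peaks of the large arms. Pericentric kept peaks lay closer still, with a median of 87.5 bp and 55.9% within 100 bp. Of the 37 at promoters 34 were upstream of the start (91.9%), against 84.6% on the large arms, and the median over the 37 was 78 bp upstream. Members that were not kept had a median distance of 3261 bp, against 1548 bp on the large arms and 10601 bp in pericentric sequence. Of these 823 members 516 (62.7%) lay over 2000 bp from any start. Every member narrower than the usual 424 bp was kept. There were 7 of these, the narrowest of 106 bp, the intergenic call whose nearest start is that of snoRNA:CD-24. Narrower calls were likewise nearly all kept on the large arms, with 554 among 4205 kept peaks and 3 among 21448 calls not kept.

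**Figure D2:**
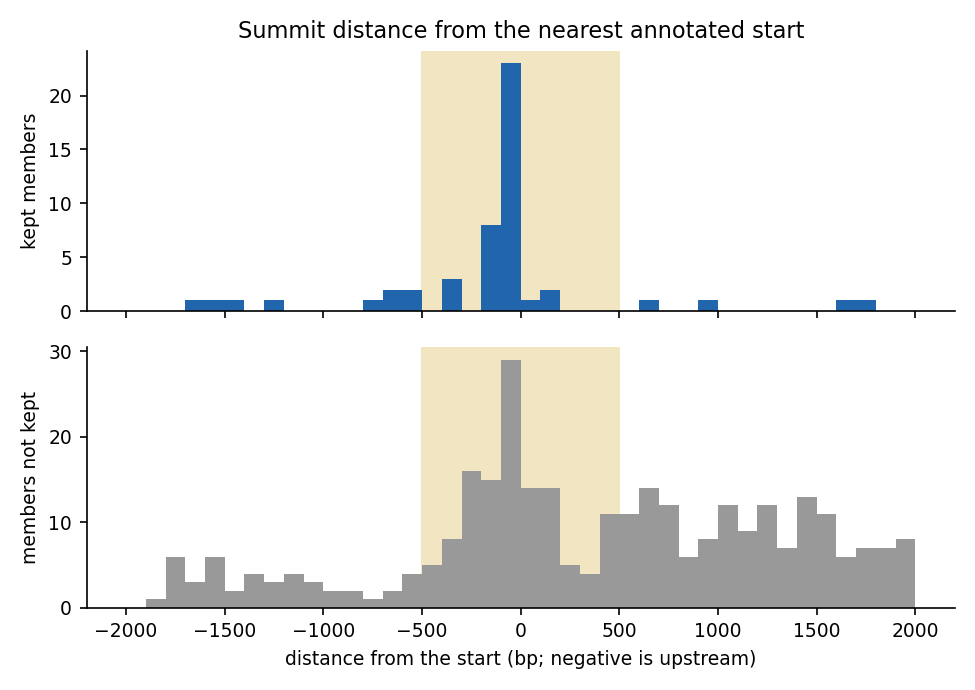
Number of members by distance of the summit from the nearest annotated start, in bins of 100 bp up to 2000 bp on either side, for kept members (top, blue) and members not kept (bottom, grey); shading marks the 500 bp taken as promoter. Kept summits form a narrow peak just upstream of the start, where 34 of the 37 at promoters lie, while the others spread over the whole range.

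Nearly all protein-coding genes of chromosome 4 had a call at a start. Of the 80 protein-coding genes 75 had one (93.8%, 86.0 to 97.9%), against 48.7% on the large arms and 66.5% in pericentric sequence. A kept one was found for 35 of the 80 (43.8%, 32.7 to 55.3%), against 22.7% on the large arms and 35.5% in pericentric sequence. Among genes with any call at a start, however, the kept share was 46.7% on chromosome 4, 46.5% on the large arms and 53.4% in pericentric sequence. The 5 protein-coding genes with no call at a start were yellow-h, fd102C, NfI, CG11155 and Gat, the last of which encodes a transporter of the neurotransmitter GABA. Inside genes, 79 of the 80 held at least 1 summit, with a median of 7, and 18 held a kept one. These counts stand beside 873 members per Mb of the chromosome outside transposable elements, and were not made for genes of the other sets.

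The genes were then grouped by role, in 5 lists that together hold 57 genes of the chromosome. Of these, 54 had a call at a start and 25 a kept one, and the list counts below stand beside 75 of 80 protein-coding genes of the chromosome with a call and 35 of 80 (43.8%) with a kept one. In the list of translation, energy and housekeeping genes all 9 had a call and 7 had a kept one, with a median strongest signal of 131. The highest were Gyf (286.51), Arl4 (212.42), RpS3A (209.20) and Rad23 (162.6), which encodes a shuttle factor that brings ubiquitinated proteins to the proteasome. Here only ND-49, a subunit of respiratory complex I, with 96.02, and Tdg, a DNA glycosylase, with 91.3, had no kept call, against a lowest kept signal of 96.4 in the whole list.

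Of the 14 signalling and guidance genes all had a call and 7 had a kept one, with a median of 100.5. PlexA (258.09) and PlexB (196.38), the fly's semaphorin receptors, were highest, followed by Crk (183.3), an adaptor protein of receptor tyrosine kinase signalling, and Asator (167.0). The receptor gene Eph had a kept call of 111.26 and the gene for its ligand, Ephrin, one of 34.3 that was not kept. The TGF-beta family ligand genes split likewise, with 115.2 and kept for Actbeta, against 52.1 for mav and 30.9 for myo, both not kept at the start. An intronic call of myo, 944 bp from a start, was kept with 164.56. These 5 genes were picked from the list as ligand and receptor genes after their values were seen.

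Transcription factors and cofactors were mixed. Of 18 genes 16 had a call at a start and 6 had a kept one, with a median of 89.3. The 4 highest were pho (195.15), ci (173.93), the effector of Hedgehog signalling, Mitf (155.07), a regulator of lysosome genes, and toy (149.73), the Pax6 gene that acts upstream of ey. The 2 with no call at a start were fd102C, a forkhead gene, and NfI, a nuclear factor I gene. Of 9 synapse and neuron genes all had a call and 3 had a kept one, at similar signals: CaMKII, the calcium and calmodulin dependent kinase, with 191.52, unc-13, which primes synaptic vesicles, with 189.78, and mGluR, a glutamate receptor, with 182.08. The list's median was 66.2, and 5 of its genes lay below 70. Of 7 muscle, transport and lipid genes 6 had a call and 2 had a kept one, with a median of 70.8. These were Zyx and apolpp, whose strongest call, of 213.26, lies within 500 bp of a start of each, and Zyx had the further kept call of 183.36 given above.

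**Figure D3:**
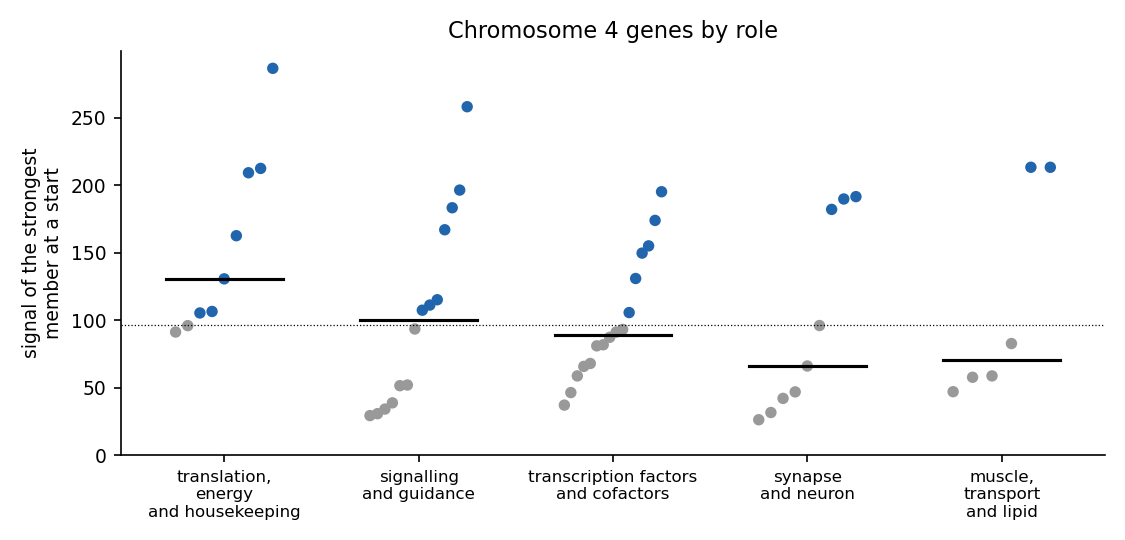
Signal of the strongest member within 500 bp of a start for each listed gene that has one, by role, on a linear axis. Blue points are kept, grey points are not, the dotted line is the lowest signal of any kept peak and the bars are medians, from 131 for translation, energy and housekeeping genes to 66.2 for synapse and neuron genes.

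The genes with most summits inside were long, and few of those summits were kept. Few members outside promoters were kept in general (3.44%). The 5 genes with most summits inside held 154 of the 885 members (17.4%). The highest number was in bt, which encodes the titin-like muscle protein projectin and spans chr4:724400-776474, with 41 summits, none kept, the strongest of signal 76.3. The others were unc-13 with 35 summits, 3 of them kept, pan, the TCF gene of Wnt signalling, with 28 and 1 kept, Sox102F with 26 and none kept, and PMCA, a plasma membrane calcium pump gene, with 24 and none kept. Over the 40 protein-coding genes of at least 10 kb, summits per 10 kb of gene ranged from 2.56 in CG11360 to 12.4 in Cals, with a median of 6.80. The 5 genes above had 6.23 to 7.87, around that median. Of the 40 genes 15 had no kept member inside or at a start, a count not made for the large arms.

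Along the chromosome the number of members per window varied little apart from the ends, while the kept ones are few per window, and whether their spread exceeds counting error was not tested. In windows of 100 kb counted from the first base, windows 2 to 12 each held between 64 and 84 members, which is 775 to 1109 per Mb outside transposable elements. The kept members numbered between 0 and 9 in the same windows. Window 5, which holds Asator and the sequence upstream of zfh2, had 9 kept members of 76, and window 10 had 8 of 74. Window 6 had none among 65, with the highest signal at 96.02 for the promoter of ND-49, and window 8, most of it taken by bt and MED26, had 1 of 73. The windows also differ in genes, with starts of 11 genes in window 5, 8 in window 6 and 4 in window 8.

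The longest stretch between neighbouring kept members ran for 113024 bp, from chr4:721984 to chr4:835008. Kept peaks with the summit inside a transposable element were not counted here. It holds bt, lncRNA:CR45200, the Mediator subunit gene MED26 and Sox102F. Inside it lay 86 members, 10 of them at promoters, and the strongest had a signal of 93.2, under the lowest kept signal. Window 6 and this stretch thus held members at promoters and in gene bodies, none of them kept.

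**Figure D4:**
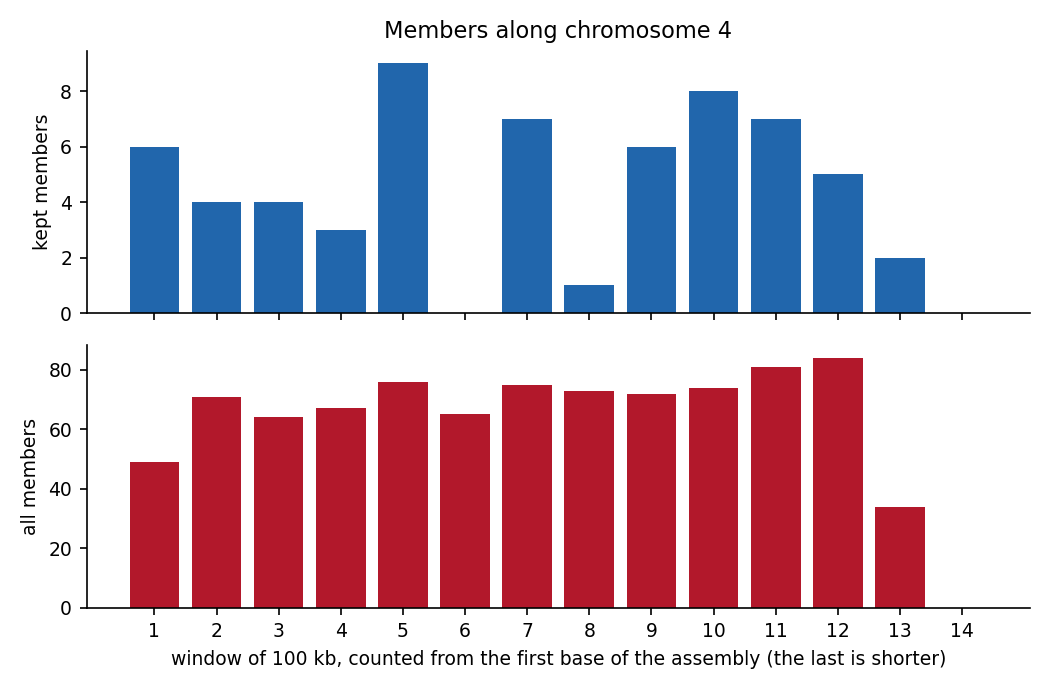
Number of kept members (top) and of all members (bottom) in windows of 100 kb along chromosome 4; the last window is shorter. All members number 64 to 84 in windows 2 to 12, while kept members vary from 0 in window 6 to 9 in window 5.

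At both ends of the chromosome calls were fewer. Window 1 held 49 members, window 13 held 34 and window 14 none. Transposable elements cover 43.5% of window 13 and 95.4% of window 14. In window 1 the summits skipped 36243 bp, between chr4:4086 and chr4:40329, with no call in transposable elements either and 1 call in each replicate list. Within that gap 9.94% of the positions outside transposable elements begin a 32-base sequence that occurs once in the assembly, against 94.3% over the chromosome, and the part of this in the lack of calls was not tested. The gap covers most of PlexB, whose promoter lies just beyond it and had a kept call.

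Transposable elements, which cover 24.8% of the chromosome, were nearer to the members than to calls of the large arms, where they cover 4.07% of the bases. The median distance from a summit to the nearest insertion was 891 bp, against 24923 bp on the large arms, and 31.6% of the members lay within 500 bp of one, against 2.95% on the large arms and 18.6% in pericentric sequence. With INE-1 elements, the most numerous family on the chromosome, left out, the members' median was 3300 bp. Kept members had a median of 886 bp, close to the 891 bp of those not kept, and 27.4% of them lay within 500 bp of an insertion, against 25.4% of pericentric kept peaks. The call itself overlapped an insertion for 4 of the 62 kept members (6.45%), against 15.7% of the members not kept.

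The motif shown in capitals above was in a larger share of the kept members than of the rest, at the window of 100 bp on either side of the summit. Within 100 bp of the summit TATCGATA was found on either strand in 6 of 62 kept members (9.68%, 3.64 to 19.9%), against 11 of the 823 not kept (1.34%, 0.669 to 2.38%). With 50 bp on either side it was in 3 kept members (4.84%, 1.01 to 13.5%). On the large arms it was in 7.02% of kept peaks and 2.82% of all calls. Its inner part TCGATA, of which every TATCGATA is a case, was in 21 kept members (33.9%, 22.3 to 47.0%), against 10.8% of the members not kept and 20.4% of the kept peaks of the large arms. Pericentric kept peaks held TCGATA in 28.8% of cases, a value inside the members' interval. At promoters the share was 37.8% of 37 kept members (22.5 to 55.2%), against 28.8% on the large arms and 29.9% in pericentric sequence.

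Outside promoters TCGATA was in 7 of 25 kept members (28.0%, 12.1 to 49.4%), against 7.88% of such kept peaks on the large arms (6.64 to 9.27%) and 26.8% of those in pericentric sequence. This share rests on members just past the 500 bp limit. Of the 18 kept members over 1000 bp from a start 3 held it (16.7%, 3.58 to 41.4%). The values for such kept peaks of the large arms (8.16%) and of pericentric sequence (24.3%) lie inside that interval. Of the 7 kept members between 500 and 1000 bp, 4 held it. The 7 kept members outside promoters that hold TCGATA include the strongest call upstream of Sox102F and 3 whose sequences are printed above. Those 3 are the Asator intron, snoRNA:CD-24 and the sequence upstream of ey. The kept members had a mean GC content of 35.4 ± 5.26% in these windows (SD, 62 members), against 37.2 ± 7.37% for kept peaks of the large arms, and its part in the motif counts was not tested. CACACACA was in 1.13% of members, against 5.58% of the calls of the large arms and 1.33% of pericentric calls. GAGAGAG was in 1.36% of members, against 4.93% of the calls of the large arms and 2.89% of pericentric calls.

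The replicate lists held a match for every kept member and for fewer of the rest, as the kept list was itself made from both replicates. A replicate call that overlapped by at least 50% of the shorter of the pair was found in both lists for all 62 kept members, against 465 of the 823 not kept (56.5%). Of the members not kept, 175 had a match in replicate 1 only, 162 in replicate 3 only and 21 in neither. By signal, 46 of the 62 kept members (74.2%, 61.5 to 84.5%) were among the 4402 strongest calls of both replicates, against 76.9% on the large arms. The other 16 were among them in a single replicate, 8 in each. The median rank of the kept members was 1807.5 in replicate 1 and 2285 in replicate 3. Spearman's rank correlation between the replicates was 0.563 over the 527 members matched in both, and 0.745 over such calls of the large arms. These are descriptions across calls, which share both libraries, and the pooled list was made from the same reads.

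The kept members with the largest disagreement between replicates were at Mitf, CG46466, Cals and Asator. A call 165 bp inside Mitf had rank 1042 in replicate 1 and rank 10637 in replicate 3, a ratio of 10.2. It overlaps the stronger Mitf call, 35 bp upstream of the same start, which matched the same call of replicate 1 and had rank 2771 in replicate 3. The ratios for CG46466, Cals and Asator were 4.25, 3.71 and 3.53.

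**Figure D5:**
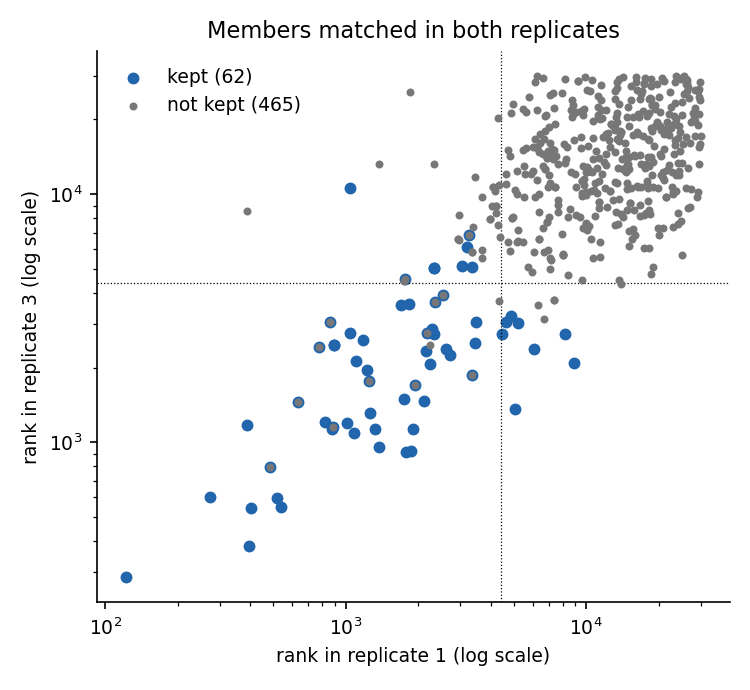
Rank by signal in replicate 1 (x) and in replicate 3 (y), both on log scales, of the 527 members matched in both lists; blue points are the 62 kept members, grey points the 465 others, and dotted lines mark rank 4402. Of the kept members 46 fall below both lines, and the one far above the rest is the second Mitf call.

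No step in signal marked the edge of the kept set. The weakest kept members were in asRNA:CR43425 (101.47), at asRNA:CR43957 (100.73) and in an intron of pan (96.8, rank 4375). The strongest members that were not kept were at the promoters of Cadps (96.109, rank 4427), which acts in vesicle release, ND-49 (96.02) and asRNA:CR43425 (95.9). In the replicates Cadps had rank 6282 in replicate 1 and rank 3573 in replicate 3, and ND-49 had rank 3697 in replicate 1 and rank 5977 in replicate 3, so each was among the 4402 strongest calls of a single replicate. The same held for the kept calls in asRNA:CR43425, with ranks 3180 and 6143 in replicates 1 and 3, and in pan, with 3259 and 6868. The kept call at asRNA:CR43957, with ranks 892 and 2475, was among them in both.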

How the data were processed

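ChIP-seq of GFP-tagged ADD1 was done on chromatin sonicated to 200 to 800 bp, per the labels. The authors deposited call lists of 30000 regions for each of the 2 replicates and for the pooled reads, and a list of 4402 peaks kept by IDR, on Release 6 and on an older assembly. The signal of each call and its −log10 q value are the authors' deposited values, and only the signal was used. The aligner, the caller and its control were not given in the sources used here. Depth in reads is unknown.

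Summits were compared with Ensembl release 115 genes and transposable elements and with the Release 6 genome, in Python 3.11.15 with pandas 2.3.3, numpy 2.4.6 and scipy 1.17.1. The large arms are 3R from 4.2 Mb, 2R from 5.6 Mb, 3L up to 23 Mb, and both X and 2L up to 22 Mb, and the rest of each is pericentric. Shares have exact Clopper-Pearson 95% intervals. With 1 group there is no contrast between conditions, so no test was run and values are descriptions; nothing in the labels says whether the 2 libraries share flies. Overlap, feature and run functions were tested on simulated intervals. In all 9 motifs were searched, on both strands. Of those not in the report, GGTCACAC was in 3.23%, GGTATTT in 4.84%, AAAAAAAA in 9.68%, CAGGTAG in 0% and GCCAT in 27.4% of kept members. In kept peaks of the large arms GGTCACAC was in 4.61%, GGTATTT in 7.13%, AAAAAAAA in 12.8%, CAGGTAG in 0.999% and GCCAT in 29.2%.

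The members and gene lists were chosen with earlier results of these data known. Of 59 listed genes 57 were found on the chromosome. Genes named are those of the 20 strongest members, up to 4 per list with the strongest kept promoter call, those with no call, those at the edge of the kept set, the 5 with most summits and the 4 with the largest rank ratio, besides those said in the text to have been picked later. A restriction to members unique in the assembly, and a limit of 1000 bp for TCGATA outside promoters, were added after seeing the data. The values of 1 gene are not reported here.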

Additional observations from a re-analysis of the deposited data

Results flagged for a closer look

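Chromosome 4 also held 180 pooled calls with the summit inside a transposable element, which enter none of the comparisons above. Of these 4 were kept. There is no control library among the files used, so how many such calls a control would give was not tested.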

How the results depend on the processing

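Of 51 alternatives tried on 13 results, 45 left the value within its interval, within 1 SD or within 1.5 times the count, and 6 moved it. The kept share of members was 4.07% with only the stronger 2201 kept peaks, against 8.21% on the large arms. The promoter share of all members was 12.0% with promoters of 200 bp and 25.7% with 1000 bp. The exon share was 40.8% when the whole call had to lie outside transposable elements. TCGATA was in 21.0% of kept members with 50 bp on either side. The median distance to an insertion was 3300 bp with INE-1 elements left out. For the list of a single replicate, kept stood for the 4402 strongest calls of that list, without the IDR procedure. On this measure the kept share was 6.94 to 8.39%, and the promoter share of kept members was 52.1 to 63.3%. The promoter share of all members was 17.4 to 19.0% and their exon share 35.0 to 37.2%. Of the listed genes, 24 to 26 had such a strong call at a start. No paired analysis was possible because the series has a single group. With 62 kept members, shares within features rest on 4 to 37 calls.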
